A study of Homo sapiens with 12 samples.

Results

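The genes described here are 35 genes of glycolysis, gluconeogenesis and their control, from the PFKFB family of regulators to glucose carriers, glycolytic enzymes, enzymes of glucose synthesis and a few genes that couple glucose to mitochondria and transcription. They were chosen by gene symbol, and a probe was kept where its detection p-value, the array's own test of a signal against negative controls, was under 0.05 on at least 4 of 12 arrays. Of the 35 genes, 33 had a probe paired with their symbol (65 probes), and 28 genes with 45 probes were kept, out of 10891 genes and 18646 probes kept on the whole array. Of the others, PFKFB1, PFKFB2, ENO2, PKLR and PCK1 had probes that did not pass, and SLC16A1 and SLC16A3 were not analysed here. All arrays held RNA of Huh7, an established human hepatoma line grown in high-glucose medium with serum. The 3 groups of 4 arrays were cells left untreated, cells given recombinant human erythroferrone (ERFE) at 10 µg/ml for 24 h and cells given recombinant mouse ERFE at the same dose and time. ERFE, made by developing red cells, lowers hepcidin by binding bone morphogenetic proteins (BMPs). The 12 samples hold no vehicle or control-protein group, so an effect of ERFE and one of adding any protein preparation cannot be told apart. Whether the arrays of a group stem from different cultures is not stated, and p-values therefore cover only their spread, possibly a technical one.

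Values are normalized signals on the log2 scale, and a difference of 1 on that scale is a doubling. Each gene is represented by its brightest probe, a gene was called changed at an adjusted p under 0.05 (limma, Benjamini-Hochberg over all 10891 genes), and the number of arrays limits the precision. Of 12 markers of hepatocytes and hepatoma, 11 were measured, and their summed signal (log2) lay between 17.15 and 17.29 on all arrays. Quantile normalization gives every array the same set of values, which limits how far such a sum of bright genes can differ. Of 6 genes of the BMP response, all lay lower on every treated than on any untreated array, and 5 with human ERFE (HAMP, ID1, ID2, ID3 and SMAD6) and 4 with mouse ERFE (the same without ID2) passed, where 0.138% and 0.147% of all genes were called lower. Transcripts of MHC class II genes, typical of antigen-presenting cells, differed between arrays of the same group. Of 9 such markers 5 were measured, with a summed signal (log2) of 8.25 to 12.24 in untreated cells, 8.995 to 11.01 with human ERFE and 8.73 to 11.82 with mouse ERFE. CIITA, their master regulator, and PTPRC, the leukocyte marker CD45, were detected on 0 of 12 arrays. High MHC class II signal was seen on untreated replicates 1 to 3, human ERFE replicates 1 and 3 and mouse ERFE replicate 1.

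Glycolysis breaks glucose down to pyruvate, and gluconeogenesis, a task of liver cells, runs most of the same steps backwards to make glucose. The step made by phosphofructokinase is the main control point, and its strongest activator, fructose 2,6-bisphosphate, is made and removed by the bifunctional PFKFB enzymes. The same molecule holds back the opposing enzyme FBP1. PFKFB3 is the family member with the highest kinase over phosphatase activity and is known to be induced by hypoxia and growth signals in tumour cells.

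PFKFB3 was the 1 gene of the 28 that was called changed at its brightest probe, and it fell with both proteins. With human ERFE its signal fell by 0.83 on the log2 scale, a 1.77-fold drop, and with mouse ERFE by 0.69, a 1.61-fold drop. It was called among 28 members in each comparison, where 0.248% of all genes were called with human ERFE and 0.22% with mouse ERFE. Counting falls alone, these shares were 0.138% and 0.147%. The shares called in either direction, 0.248% and 0.22%, also stand beside the calls in the smaller groups of genes below. The call was held by the brighter of its 2 probes, and the dimmer one lay lower in treated cells without passing.

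RefSeq lists 2 start sites for PFKFB3 on the plus strand of chromosome 10 (GRCh38.p14). Both promoter windows are shown because PFKFB3 was the only gene here called changed at its brightest probe. Each window runs from 250 bases before the start to 50 after it, and the capitals mark matches, on either strand, to ACGTG or GCGTG (the core of a hypoxia response element), CACGTG (the E-box bound by MYC, USF and related factors) and GGCGCC (a motif bound by SMAD proteins of the BMP pathway).
Upstream start, chr10:6144671-6144970: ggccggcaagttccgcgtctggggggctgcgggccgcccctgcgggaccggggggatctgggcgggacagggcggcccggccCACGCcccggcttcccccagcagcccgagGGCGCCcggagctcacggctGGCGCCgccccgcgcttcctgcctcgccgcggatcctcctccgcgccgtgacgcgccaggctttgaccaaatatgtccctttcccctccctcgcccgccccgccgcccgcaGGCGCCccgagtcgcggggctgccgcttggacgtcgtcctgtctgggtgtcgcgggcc
Downstream start, chr10:6202682-6202981: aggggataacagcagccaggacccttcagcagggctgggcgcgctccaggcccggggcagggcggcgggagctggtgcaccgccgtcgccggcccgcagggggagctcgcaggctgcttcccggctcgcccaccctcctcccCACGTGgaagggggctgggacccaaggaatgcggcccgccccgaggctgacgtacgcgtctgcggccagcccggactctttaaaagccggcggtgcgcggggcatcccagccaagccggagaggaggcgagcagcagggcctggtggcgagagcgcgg
The upstream window holds 3 matches to GGCGCC, which begin 139, 119 and 8 bases before the start, and 1 to GCGTG on the minus strand. The downstream window holds 1 match to CACGTG, which begins 108 bases before the start and contains ACGTG on both strands, and 0 matches to GGCGCC. Among all 35116 windows of this length in the RefSeq table, 19.2% hold GGCGCC, 21.4% ACGTG, 36.5% GCGTG and 7.26% CACGTG. The 62 windows of the 31 members found in that table hold these motifs in 32.3%, 33.9%, 35.5% and 11.3%. A match is a string of letters and not a site shown to be used in these cells, and the probes do not show which start was used.

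The deposited signal of the brighter PFKFB3 probe (ILMN_2186061), before normalization, was 1002 to 1307 on untreated, 585 to 945 on human ERFE and 622 to 888 on mouse ERFE arrays. After normalization it read 9.86, 10.09, 10.06 and 9.99 on untreated arrays 1 to 4. It read 8.93, 9.20, 9.33 and 9.25 on human ERFE arrays 1 to 4. It read 9.13 and 9.38 on mouse ERFE arrays 1 and 2, and 9.41 and 9.33 on the arrays titled replicate 3, here called 3-A4 and 3-B4. All 8 treated arrays lay below all 4 untreated ones. Group means were 10.00 ± 0.10 (SD, n = 4) untreated, 9.18 ± 0.17 with human ERFE and 9.32 ± 0.13 with mouse ERFE. The fall had a 95% confidence interval of -1.05 to -0.61 with human ERFE (limma, adjusted p = 0.00365) and of -0.91 to -0.47 with mouse ERFE (limma, adjusted p = 0.0134). By p-value PFKFB3 ranked 7 of 10891 genes with human ERFE and 13 with mouse ERFE. In size it was the 6th of 15 called falls with human ERFE and the 9th of 16 with mouse ERFE. Both comparisons share the 4 untreated arrays.

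**Figure D1:**
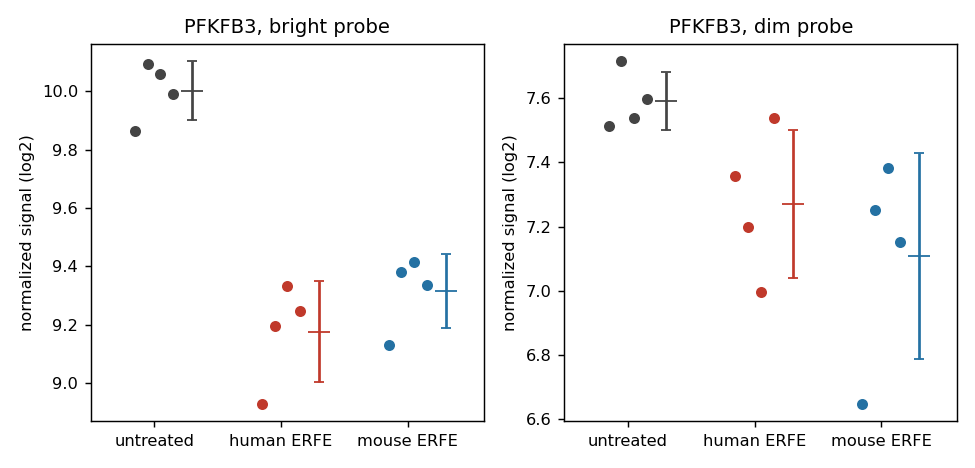
Normalized log2 signal of the brighter (left) and the dimmer (right) PFKFB3 probe on each array, by group, with each point an array and the bar its group's mean ± SD (n = 4). At the brighter probe every treated array, between 8.93 and 9.41, lies below every untreated one, and at the dimmer probe human ERFE replicate 4 overlaps the untreated arrays.

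The dimmer PFKFB3 probe (ILMN_1660847) read 7.51, 7.72, 7.54 and 7.60 on untreated arrays 1 to 4. With human ERFE it read 7.36, 7.20, 6.996 and 7.54, and with mouse ERFE 6.65, 7.25, 7.38 and 7.15. The mouse ERFE arrays all lay below the untreated ones, as for 3.43% of all probes, whereas human ERFE replicate 4 lay within them. Over all 18646 probes its differences of -0.32 ± 0.15 (SE) with human ERFE and -0.48 ± 0.15 with mouse ERFE did not pass (limma, adjusted p = 0.763 and 0.283), while the brighter probe passed (adjusted p = 0.00996 and 0.0285). Among all probes 0.0912% were called with human ERFE and 0.123% with mouse ERFE. The brighter probe exceeded the dimmer one by 2.41 ± 0.08 on untreated, 1.90 ± 0.34 on human ERFE and 2.21 ± 0.19 on mouse ERFE arrays (SD, n = 4). This gap was smaller by 0.51 with human ERFE (exact two-sided permutation p = 0.0286, the smallest that 4 against 4 arrays can give, and 0.0571 adjusted over both tests). With mouse ERFE it was smaller by 0.20 (exact two-sided permutation p = 0.114, and 0.114 adjusted). Before normalization the dimmer probe read 234 to 363, where the array medians over all probes were 140 to 186. Whether this low signal makes its fall look smaller was not tested. Over the 8 treated arrays the probes did not follow each other, with Pearson's r = 0.10 and Spearman's rho = 0.21 (exact permutation p = 0.805 and 0.619), and r = -0.08 without human ERFE replicate 1 and mouse ERFE replicate 1.

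PFKFB3 lay lower in treated cells under all 28 alternatives run, some of which could not turn its sign. Whether it passed depended on the probe rule and on the scaling of the arrays. With the mean of both probes it had -0.57 with human and -0.58 with mouse ERFE, and with median centring of the arrays -0.74 and -0.77, none of which passed (limma, adjusted p = 0.065 and 0.0577, then 0.147 and 0.117). With mouse ERFE the call was also lost without untreated replicate 2 or 3 (-0.66 and -0.67, adjusted p = 0.0665 and 0.065) and with the number or the letter of the sample titles as a block (-0.68 in both, adjusted p = 0.0883 and 0.0651). Beside the MHC class II level, taken into the fit as a covariate, the fall was 0.86 with human and 0.73 with mouse ERFE, and both passed (adjusted p = 0.00568 and 0.0254). The untreated array with low MHC class II signal, replicate 4, read 9.99, within the 9.86 to 10.09 of the other 3.

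PFKFB4, the family member best known from testis and from hypoxic tumour cells, was detected on all 12 arrays and had a difference of -0.00 with human ERFE and of -0.03 with mouse ERFE. Its untreated arrays ranged from 8.64 to 8.89 and its treated ones from 8.55 to 8.85, so the groups overlapped in part. The 95% confidence intervals were -0.21 to 0.21 with human ERFE and -0.24 to 0.18 with mouse ERFE, which exclude a fall as large as that of PFKFB3. PFKFB1, the enzyme of normal liver and muscle, was detected on 0 of 12 arrays. PFKFB2, the heart and kidney form, has 3 probes, of which 1 was detected on 2 of 4 human ERFE arrays and on none of the others, and it was not tested.

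None of the 14 measured enzymes that carry out glycolysis itself passed, where 0.248% of all genes did with human ERFE and 0.22% with mouse ERFE. Their median log2 difference was 0.03 with human ERFE, against 0.01 over all genes, and -0.01 with mouse ERFE, against -0.00 over all genes. With human ERFE 13 of the 14 had differences under 0.2 in size, and with mouse ERFE 11 of 14. Of all 10891 genes, 8810 had such small differences with human ERFE and 8307 with mouse ERFE. GAPDH, which oxidizes glyceraldehyde 3-phosphate, had 0.08 with human ERFE (95% confidence interval -0.08 to 0.24) and -0.01 with mouse ERFE (-0.16 to 0.15). ENO1, the main enolase, had 0.08 and -0.01, TPI1, triosephosphate isomerase, 0.03 and -0.01, and PGK1, the first enzyme of the pathway to make ATP, 0.07 and 0.01. ALDOC, the brain form of aldolase, which splits the sugar, had 0.05 and 0.10. GAPDH read between 14.03 and 14.30 and ENO1 between 14.06 and 14.32 on all 12 arrays. Before normalization GAPDH read 15172 to 24025 at this probe. Quantile normalization limits how far the brightest probes can differ between arrays.

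HK1, a hexokinase that traps glucose in the cell, read 6.87, 6.71, 6.81 and 6.31 on untreated arrays and 6.20, 6.10, 6.64 and 6.20 on human ERFE arrays. With mouse ERFE it read 6.87, 6.70, 6.38 and 6.38. Its difference with human ERFE was -0.39 ± 0.16 (SE) with an unadjusted p of 0.0289 and did not pass (limma, adjusted p = 0.635), and with mouse ERFE it was -0.09. Beside the MHC class II covariate these values were -0.27 and 0.07. HK2, the inducible hexokinase of tumour cells, had 0.04 and 0.13 at its brightest probe and -0.07 and -0.14 at the other, so its sign differed between probes. GPI, which turns glucose 6-phosphate into fructose 6-phosphate, had -0.12 and -0.21.

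Phosphofructokinase itself, the enzyme that the product of PFKFB3 activates, showed no call in any of its 3 genes. PFKM, the muscle form, read between 10.82 and 11.18 on all arrays and had differences of 0.03 and 0.01. PFKL, the liver form, had 0.11 with human and 0.13 with mouse ERFE. PFKP, the platelet form, lay near background, with detection on 1, 1 and 2 of 4 arrays in untreated, human ERFE and mouse ERFE cells, and had 0.03 and 0.28.

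ALDOA, the main aldolase, read 12.65, 12.90, 12.76 and 12.60 on untreated arrays at its brightest probe. It read 12.48, 12.77, 12.52 and 12.53 with human ERFE and 12.48, 12.25, 12.50 and 12.61 with mouse ERFE. Treated and untreated arrays overlapped in both comparisons. The difference with mouse ERFE, -0.27 ± 0.10 (SE) with an unadjusted p of 0.022, did not pass (limma, adjusted p = 0.333), and that with human ERFE was -0.15. In all, 2 of 28 members had an unadjusted p under 0.05 with human ERFE, PFKFB3 and HK1, where 6.98% of all genes had one. With mouse ERFE 3 of 28 did, PFKFB3, ALDOA and PCK2, where 11.5% of all genes had one. PFKFB3 was also the 1 member whose arrays did not overlap, which held for 3.99% of all genes with human ERFE and for 6.94% with mouse ERFE. Counting only genes that lay lower, these shares were 1.74% and 4.02%.

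**Figure D2:**
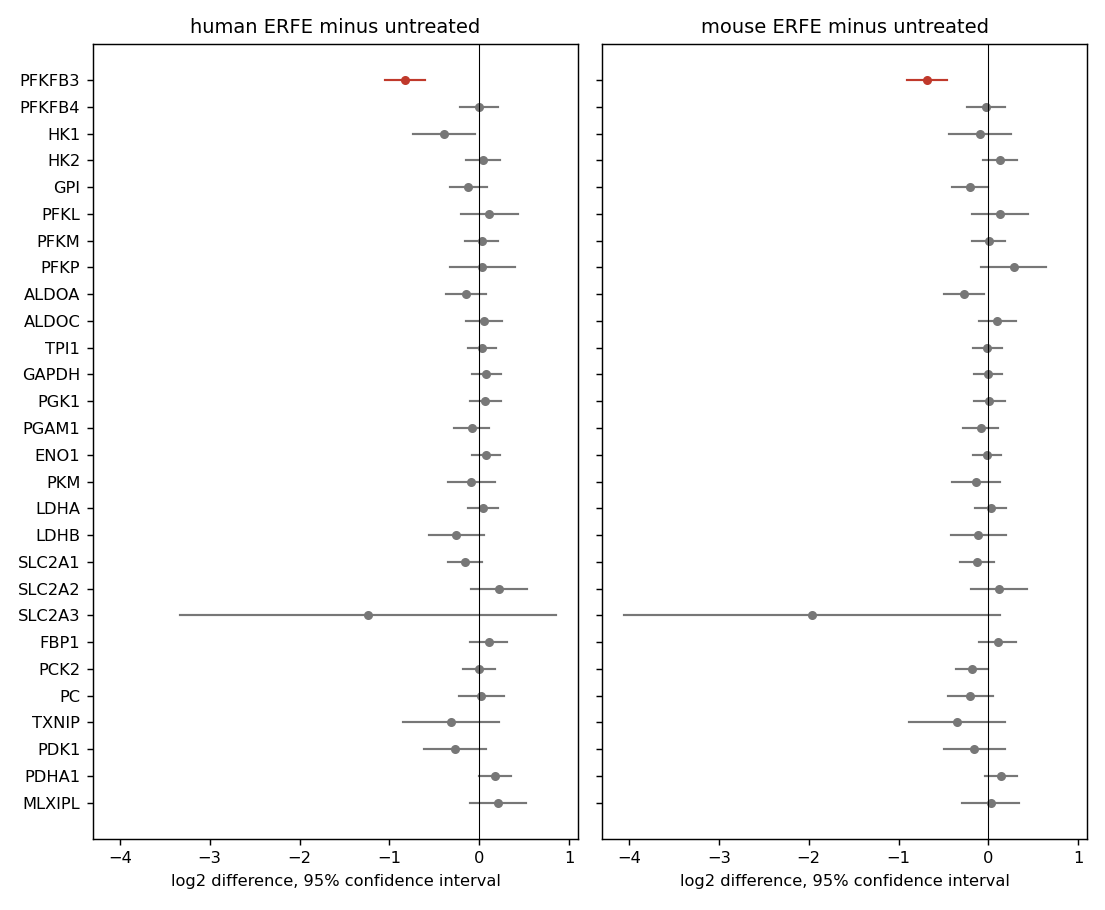
Log2 difference from untreated cells (horizontal axis) of the 28 measured genes at their brightest probe, with 95% confidence intervals, for human ERFE (left) and mouse ERFE (right), where red marks an adjusted p under 0.05. Only PFKFB3 is red, and SLC2A3 has the widest interval, from -3.33 to 0.86 with human ERFE.

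Of the 28 genes 11 had more than 1 kept probe, and ALDOA, PGAM1 and PKM, picked after their values were seen, had the widest spread between probes with mouse ERFE (1.18, 1.39 and 0.67, with 0.04 to 0.27 for the other 8). With human ERFE the spread was 0.77, 0.92 and 0.22, and it was larger than that of PKM for PFKFB3 (0.51), LDHA (0.31) and PC (0.30). For PGAM1, phosphoglycerate mutase, the brightest probe had -0.08 with human and -0.09 with mouse ERFE, and the other had 0.84 ± 0.39 and 1.30 ± 0.39 (SE), neither of which passed (limma over all probes, adjusted p = 0.753 and 0.25). This second probe read 8.61, 8.85, 8.47 and 10.61 on untreated arrays 1 to 4. It read 10.48, 9.62, 9.64 and 10.15 with human ERFE, and 10.32, 10.23, 10.62 and 10.60 with mouse ERFE. Untreated replicates 1 to 3 were low and untreated replicate 4 lay among the highest treated arrays, so the untreated group spanned 2.14. Without untreated replicate 4 the same probe had 1.33 and 1.80 and passed (adjusted p = 0.0201 and 0.00254).

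A second ALDOA probe had the same order of arrays in the untreated group, with 10.40, 10.87, 10.28 and 12.09. With human ERFE it read 11.78, 11.27, 11.28 and 11.77, and with mouse ERFE 11.57, 11.57, 12.04 and 12.11. Its differences of 0.62 and 0.92 did not pass (limma, adjusted p = 0.798 and 0.331), and the one with mouse ERFE passed without untreated replicate 4 (1.31, adjusted p = 0.0113), where the one with human ERFE was 1.01 (adjusted p = 0.0615). At the brightest ALDOA probe all arrays lay within 12.25 to 12.90. For PKM, the pyruvate kinase of most tumour cells, the probes had -0.14, -0.41 and 0.27 with mouse ERFE and -0.09, -0.21 and 0.01 with human ERFE, and none passed. With the mean of a gene's probes in place of the brightest, the sign of both genes turned, to 0.15 and 0.24 for ALDOA and to 0.38 and 0.61 for PGAM1 (human and mouse ERFE), and neither passed. Untreated replicates 1 to 3 are the untreated arrays with high MHC class II signal. Beside that covariate the second PGAM1 probe had 0.60 and 0.98 and the second ALDOA probe 0.39 and 0.61. Among treated arrays, those with high MHC class II signal (human ERFE replicates 1 and 3, mouse ERFE replicate 1) read 10.48, 9.64 and 10.32 at the second PGAM1 probe. The other treated arrays read 9.62 to 10.62 there. At the second ALDOA probe the same arrays read 11.78, 11.28 and 11.57, and the other treated arrays 11.27 to 12.11. What moves these 2 probes was not tested.

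**Figure D3:**
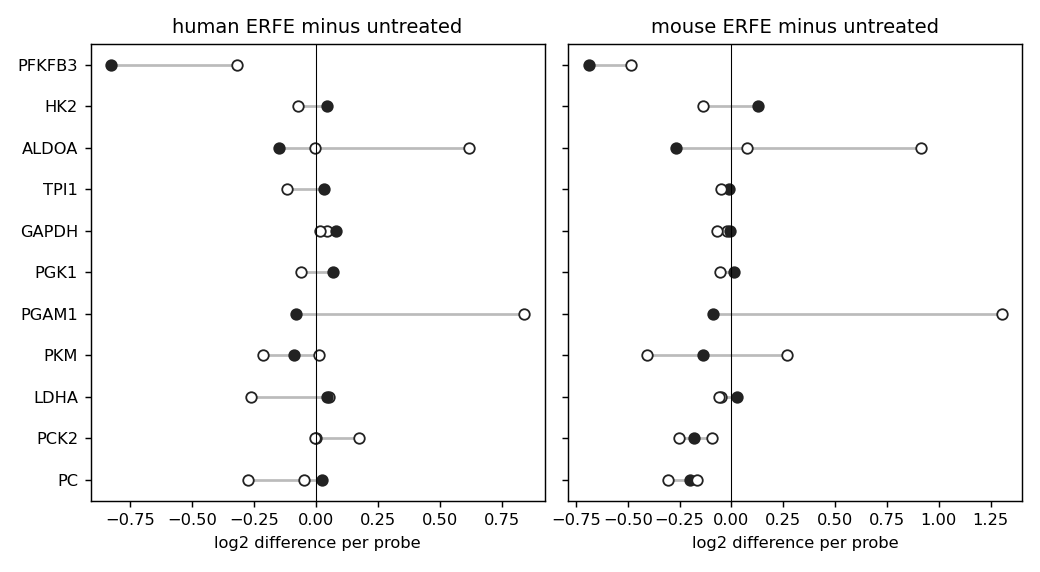
Log2 difference from untreated cells of each kept probe of the 11 genes with more than 1, for human ERFE (left) and mouse ERFE (right), where the filled point is the brightest probe and open points are the others. The probes of PGAM1 and ALDOA lie farthest apart, by 1.39 and 1.18 with mouse ERFE.

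**Figure D4:**
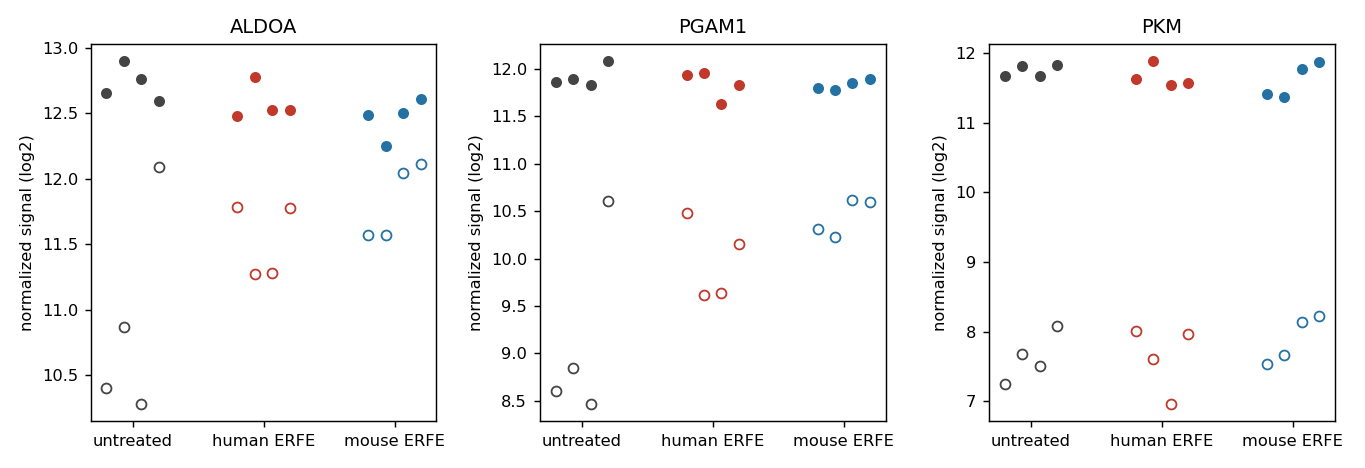
Normalized log2 signal per array of ALDOA, PGAM1 and PKM by group, with the brightest probe as filled points and the second probe that differed most from it as open points. The open points of ALDOA and PGAM1 are low on 3 of 4 untreated arrays, while the filled ones stay within 12.25 to 12.90 and 11.63 to 12.08.

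Lactate dehydrogenase turns pyruvate into lactate and renews the cofactor of glycolysis, and neither of its genes passed. LDHA, the form favoured in tumours, read between 13.91 and 14.15 on all arrays at its brightest probe and had differences of 0.04 with human and 0.02 with mouse ERFE. Another LDHA probe ranged more widely, from 12.79 to 14.02, with differences of 0.05 and -0.05. A dim LDHA probe had -0.26 and -0.06, and none of these passed. LDHB, the form of heart muscle, lay near background, with detection on 3, 1 and 2 of 4 arrays, and had -0.25 and -0.11.

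Among the glucose carriers, SLC2A1 (GLUT1), the carrier of most growing cells, had -0.16 with human and -0.13 with mouse ERFE, and SLC2A2 (GLUT2), the carrier of hepatocytes, had 0.22 and 0.12, none passing. SLC2A3 (GLUT3), a high-affinity carrier of neurons and white blood cells, had the widest spread of all 28 genes. It read 9.44, 8.17, 7.62 and 4.63 on untreated arrays, 7.47, 4.98, 6.95 and 5.52 with human ERFE and 7.75, 4.75, 4.74 and 4.77 with mouse ERFE. The groups overlapped, and the differences of -1.24 ± 0.97 (SE) and -1.96 ± 0.97 did not pass (limma, adjusted p = 0.85 and 0.469). They moved with single arrays, to -0.58 and -1.30 without untreated replicate 1 and to -2.18 and -2.91 without untreated replicate 4, and with human ERFE to -0.82 without human ERFE replicate 2, none of which passed. It was detected on 3, 3 and 1 of 4 arrays in untreated, human ERFE and mouse ERFE cells. The 6 arrays with high MHC class II signal read 6.95 to 9.44 for SLC2A3 and the other 6 read 4.63 to 5.52. Beside the MHC class II covariate its differences were -0.27 and -0.67.

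TXNIP, an inhibitor of glucose uptake whose transcription rises with glucose, read 9.25, 8.66, 8.52 and 8.11 on untreated arrays. It read 8.80, 8.09, 8.10 and 8.31 with human ERFE and 8.83, 8.09, 7.99 and 8.25 with mouse ERFE. Its differences of -0.31 and -0.35 did not pass (limma, adjusted p = 0.857 and 0.659). The 6 arrays with high MHC class II signal ranged from 8.10 to 9.25 and the other 6 from 7.99 to 8.31, and beside the covariate the differences were -0.11 and -0.08. SLC2A3 and TXNIP were picked for this account after their values were seen. In bulk RNA more cells of a type and more RNA per cell cannot be told apart.

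**Figure D5:**
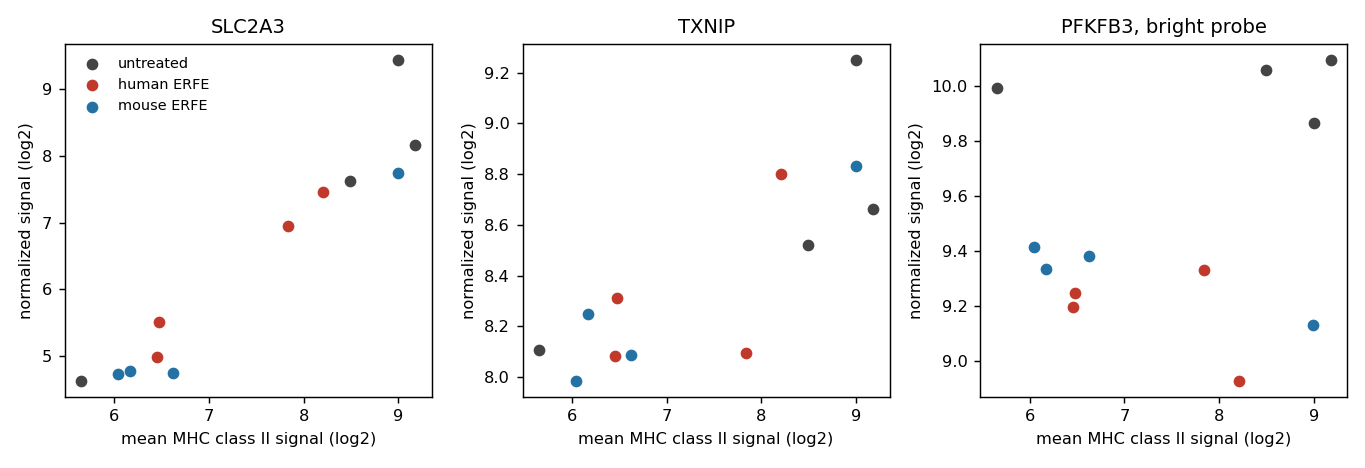
Normalized log2 signal of SLC2A3, TXNIP and PFKFB3 (vertical axes) against the mean log2 signal of 5 MHC class II genes (horizontal axis), with each point an array coloured by group. SLC2A3 separates the 6 arrays at 7.84 or more on the horizontal axis from the 6 at 6.62 or less. PFKFB3 lies lower on treated than on untreated arrays at both ends, where the low end holds only 1 untreated array, replicate 4.

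None of the 3 measured genes of glucose synthesis passed with either protein. FBP1, the enzyme opposed by the product of PFKFB3, read between 6.57 and 7.02 on all arrays and had 0.10 in both comparisons, with a 95% confidence interval of -0.10 to 0.31 in each. PC, which makes oxaloacetate from pyruvate, had 0.02 with human and -0.20 with mouse ERFE. PCK1, the cytosolic form of phosphoenolpyruvate carboxykinase and the classic hormone-controlled gene of this pathway in liver, was detected on 0 of 12 arrays, as was PKLR, the liver pyruvate kinase. PCK2, the mitochondrial form of phosphoenolpyruvate carboxykinase, read 9.77, 9.84, 9.79 and 9.66 on untreated arrays. It read 9.69, 9.84, 9.88 and 9.66 with human ERFE and 9.55, 9.49, 9.71 and 9.60 with mouse ERFE. The mouse ERFE arrays overlapped the untreated ones, and the difference of -0.18 ± 0.08 (SE), with an unadjusted p of 0.0469, did not pass (limma, adjusted p = 0.424).

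At the entry of pyruvate into mitochondria, PDHA1, a subunit of pyruvate dehydrogenase, had 0.18 with human and 0.14 with mouse ERFE (unadjusted p = 0.0548 and 0.124). PDK1, a kinase that switches this enzyme off and is induced by hypoxia, lay near background, with detection on 2, 1 and 1 of 4 arrays, and had -0.27 and -0.16. MLXIPL (ChREBP), the transcription factor through which liver cells respond to glucose, had 0.20 and 0.02 with detection on 3, 2 and 2 of 4 arrays.

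Between human and mouse ERFE 0 of the 28 genes were called, where 0.00918% of all genes were (limma), and 1 member had an unadjusted p under 0.05, where 4.92% of all genes had one. For 0 of the 28 did the arrays of both proteins stand apart without overlap, where 2.42% of all genes did. PFKFB3 was 0.14 lower with the human protein at the brighter probe, with a 95% confidence interval of -0.36 to 0.08, and 0.16 higher at the dimmer one, so the sign differed between the probes. At the brighter probe it also turned under 2 of 28 alternatives, reaching 0.03 at most. The member with the unadjusted p of 0.0455 was PCK2, which was 0.18 higher with human ERFE (adjusted p = 0.989). A dimmer PCK2 probe read 6.85, 6.88, 6.74 and 6.67 with human ERFE and 6.24, 6.17, 6.54 and 6.48 with mouse ERFE. These arrays did not overlap, as for 2.48% of all probes, and the difference of 0.43 did not pass (limma, adjusted p = 0.866), where 0.00536% of all probes were called. The 3 PCK2 probes were higher with human ERFE by 0.18, 0.43 and 0.09. Protein species and protein preparation cannot be told apart in this design.

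Beyond these 28 genes, 79 of 107 listed genes of neighbouring pathways were measured. Of them 0 were called with human or mouse ERFE (limma), where 0.248% and 0.22% of all genes were. Of these 79, 2 had an unadjusted p under 0.05 with human ERFE and 11 with mouse ERFE, where 6.98% and 11.5% of all genes had one. These counts are 2.53% and 13.9% of the 79. The 18 measured hypoxia factors and other hypoxia targets had a median of -0.04 with human and -0.03 with mouse ERFE. Among them DDIT4, an inhibitor of mTOR signalling, had -0.25 with human ERFE (adjusted p = 0.406), and ARNT, the partner of the hypoxia-inducible factors, had 0.30 with mouse ERFE (adjusted p = 0.254). Of the pyruvate dehydrogenase list 7 were measured, with a median of 0.03 and 0.04. Its kinases PDK3 and PDK2 had 0.30 and 0.47 with mouse ERFE (adjusted p = 0.263 and 0.284).

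The 16 other measured genes of glycolysis and gluconeogenesis had medians of -0.05 and 0.02, with LDHC, a lactate dehydrogenase of testis, at -0.51 and ADPGK, an ADP-dependent glucokinase, at -0.21 with mouse ERFE. The 7 genes of the pentose phosphate pathway, which makes NADPH and ribose, had medians of -0.05 and -0.11, with PGD at -0.16 and RPIA at -0.15 with mouse ERFE. The 13 genes of glycogen metabolism had medians of -0.03 and -0.04, with PHKG2, a phosphorylase kinase subunit, at -0.47 and GYG2, a glycogenin, at 0.17 with mouse ERFE. The 15 genes of the citric acid cycle had medians of 0.01 and -0.04, with IDH3A at -0.27 and DLST at -0.23 with mouse ERFE. Of the partners and targets of MLXIPL 3 of 7 were measured, with MLX, its binding partner, at -0.43 and TKFC at -0.14 with mouse ERFE. All of these named values missed the threshold.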

How the data were processed

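Illumina arrays were hybridised with biotinylated cRNA of 12 samples, per the labels' protocols. Each probe has a deposited signal intensity (linear, as its values show) and a deposited detection p-value against negative controls. Of tools, lumi and limma appear in the submitters' processing notes without version or role; background handling is not given in the sources used here. The deposited table described as normalized held the same intensity values (567876 of 567876 equal), as did the value table.

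Background correction and quantile normalization used neqc (limma 3.58.1 in R 4.3.3, offset 16), which estimated the control probes through those p-values. The 3 groups were fitted with lmFit and eBayes to 1 probe per gene (the brightest) and, separately, to all kept probes, two-sided, and the fit was tested on simulated data. Members and lists were chosen with earlier results of these data known. Named in full are PFKFB3 and members with an unadjusted p under 0.05, plus, in each other list, the 2 smallest p-values. Other genes named in full were picked after their values were seen, as stated there. The agreement of the PFKFB3 probes, planned over 12 arrays, was taken over the 8 treated ones because the groups separate. Alternatives covered normalization, filters, probe rules, blocks, a covariate and left-out arrays. Both mouse ERFE arrays titled replicate 3 (A4 and B4) were kept as 2, and their difference had an SD of 0.291, the second smallest of 18 pairs within groups.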

Additional observations from a re-analysis of the deposited data

Results flagged for a closer look

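In groups of 4, a value was noted where its gap to the nearest other array took up most of the group's range, which chance gives in about 1 in 20 groups. Of 96 groups of values examined 5 met this. SLC2A3 on mouse ERFE replicate 1 was 7.75 against 4.74 to 4.77 on the other 3, and that array was the 1 mouse ERFE array with high MHC class II signal. On untreated replicate 4, GPI was 10.58 against 10.80 to 10.82 and LDHB 5.19 against 5.54 to 5.60 on the others. ALDOA on human ERFE replicate 2 was 12.77 against 12.48 to 12.53, and PFKL on human ERFE replicate 1 was 7.78 against 8.04 to 8.09. Outside the tested probes, a PFKFB2 probe was detected on 2 of 4 human ERFE arrays and on 0 of 4 untreated ones.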

How the results depend on the processing

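PFKFB3 kept its direction under all 28 alternatives in both comparisons with untreated cells. Some of these, such as the filters, leave its difference as it was and can change only the p-value. Leaving out an array could not turn the sign either, because all treated arrays lay below all untreated ones. PFKFB3 stayed called under 26 with human ERFE (differences from -0.88 to -0.57) and 22 with mouse ERFE (-0.77 to -0.58). The call was lost, leaving 0 members called, with median centring (-0.74 with human and -0.77 with mouse ERFE) and with the mean of its probes (-0.57 and -0.58). With mouse ERFE it was also lost with the title number (-0.68, adjusted p = 0.0883) or the title letter (-0.68, adjusted p = 0.0651) as a block. The cause was not tested. Leaving out 1 array gave -0.88 to -0.74 with human ERFE, with 1 member called each time, and -0.73 to -0.63 with mouse ERFE, with 0 or 1 called. Deviations of same-numbered arrays from their group means had correlations of -0.32 to 0.32 over 12 pairs. Differently numbered arrays had -0.29 to 0.38 over 36 pairs. These values show no closer tie between same-numbered arrays, but whether the numbers pair samples cannot be told from them. With the replicate block PFKFB3 had -0.83 and -0.70 (adjusted p = 0.00435 and 0.0235), and 1 member was called in each comparison. These counts take 1 value per gene, its brightest probe or the mean of its probes. Taken so, the other 27 genes were not called under any alternative run. Of them 10, 13 and 17 changed sign under at least 1 (human ERFE, mouse ERFE, human minus mouse). Second probes of PGAM1 (both proteins) and ALDOA (mouse ERFE) did pass with 1 untreated array left out, as given above. PFKP, LDHB, SLC2A3, PDK1 and MLXIPL have no value with probes detected on all arrays. Genes near background can show little change at this signal.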
